A study of Mus musculus with 6 samples.

Results

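The wild type piRNA cluster landscape of mouse pachytene spermatocytes was taken from 2 small RNA libraries, WT replicate 1 and WT replicate 2. A member is any deposited cluster with reads in at least 1 of them, and a cluster missing from a table counts as 0. There were 4634 such clusters, of 4944 with reads in any of the 4 small RNA libraries of the series. Clusters that overlap were counted once: 281 that shared at least 1 base with a cluster holding more wild type reads were left out, which left 4353. The study compares wild type with Alkbh1-/- and TzfpGTi/GTi spermatocytes, and neither mutant was used here. Both wild type libraries were labelled as wild type pachytene spermatocytes of the testes; strain, age and the animals behind each library are not stated there. The spread between the 2 libraries may therefore be technical, biological or both, and these cannot be told apart. With 1 group there is no comparison of conditions, and values are given per library or as mean ± SD over the 2 libraries (n = 2).

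PIWI-interacting RNAs (piRNAs) are small RNAs bound by PIWI proteins of germ cells. In the pachytene stage of meiosis most of them are cut from long single-stranded precursor transcripts of a limited set of genomic regions, the pachytene piRNA clusters, whose transcription depends on the factor A-MYB. Unlike the piRNAs of fetal germ cells, they are poor in transposon sequence. The X and Y chromosomes are transcriptionally silenced during this stage.

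The cluster reads summed to 9696999 in WT replicate 1 and 14570937 in WT replicate 2 after overlaps were counted once, and the clusters left out had held 4.87% and 4.89% of the deposited reads. Cluster tables name no genes, so the cell type was checked in the 1 wild type mRNA library, a different preparation. There 10 of 10 pachytene markers were detected at 121 to 4866 CPM (counts in a library scaled to 1000000), with Ldhc, the germ cell lactate dehydrogenase, highest and the PIWI protein gene Piwil1 at 1139 CPM. Matched spermatogonial markers lay at 4.26 to 49.0 CPM, Leydig cell markers at 7.42 to 29.3 and round spermatid markers at 66.8 to 302.6. Of 6 Sertoli cell markers 5 were matched, at 46.6 CPM for Sox9 up to 1828 CPM for Clu, so RNA of Sertoli genes was present in that library. All matched markers of the other cell types were detected too, so detection alone does not tell the cell types apart. The pachytene markers Sycp1 (121 CPM) and Pgk2 (271 CPM) lay within the range of the round spermatid markers. Whether other cells contributed to the cluster reads was not tested.

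Few clusters held most of the reads. In both libraries the first 10 clusters reached 50% of the reads and the first 42 reached 90%, when ranked by mean share. These 42 were 0.965% of the clusters and 1.96% of the covered length, and 37 of them carry a number as name; the other clusters of the series have names that begin with piC. To reach 99% took 258 clusters in WT replicate 1 and 209 in WT replicate 2. The first 10 held 51.6% ± 0.75 of the reads and the first 100 held 97.9% ± 0.17. The Gini coefficient, which is 0 for even and near 1 for concentrated values, was 0.989 in WT replicate 1 and 0.990 in WT replicate 2. The curve of cumulative shares was nearly the same in both libraries.

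**Figure D1:**
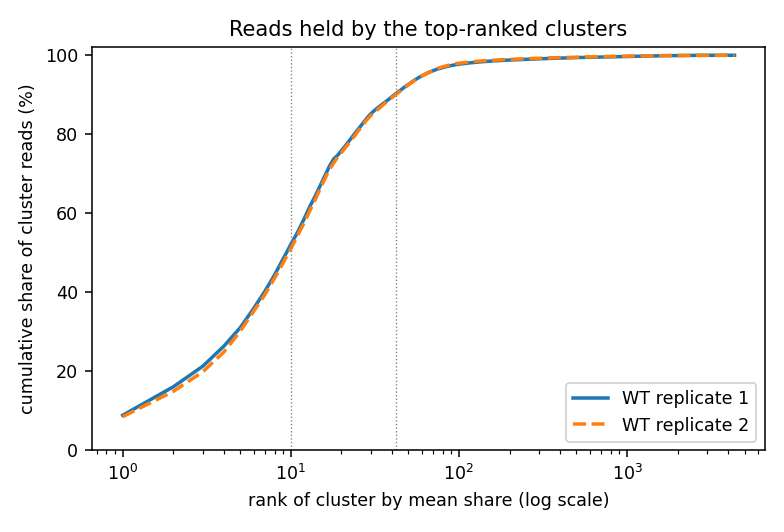
Cumulative share of cluster reads (%) against the rank of the cluster by mean share on a log axis, 1 line per library. The dotted lines mark ranks 10 and 42, where both lines pass 50% and 90%.

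At the other end, 940 clusters (21.6%) had a mean of under 1 read and held 0.00408% of the reads in WT replicate 1 and 0.00254% in WT replicate 2. A further 1390 had 1 to 10 reads on average and 1457 had 10 to 100. Only 28 clusters had a mean of 100000 reads or more, and they held 83.8% and 83.4%. Between these, 49 clusters with 10000 to 100000 reads held 13.2% ± 0.40 and 77 with 1000 to 10000 reads held 1.86% ± 0.016. The 154 clusters of 1000 or more reads were thus a small part of the list.

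The most abundant was cluster 2249 on chromosome 17 (mm9, 27386801 to 27518200, 131.4 kb), with 859922 reads in WT replicate 1 and 1238380 in WT replicate 2. These were 8.87% and 8.50% of the reads, a mean of 8.68% ± 0.26. Cluster 1301 on chromosome 9 (67523501 to 67622500, 99 kb) had 697823 and 934413 reads, 6.80% ± 0.55. The SDs of this pair do not overlap, and 2249 ranked above 1301 in both libraries.

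A tier of 4 clusters near 5% followed. Cluster 882 on chromosome 6 (127716201 to 127805800) had 507295 and 724804 reads, 5.10% ± 0.18. Cluster 200 on chromosome 2 (92364001 to 92456000) had 492051 and 729461, 5.04% ± 0.048. Cluster 2405 on chromosome 18 had 451698 and 764143, 4.95% ± 0.41, and cluster 1031 on chromosome 7 (80908701 to 80998300) had 467675 and 731500, 4.92% ± 0.14. These 4 differed by less than the spread of 2405 between the libraries, and their order was not the same in both: 882 was highest of them in WT replicate 1 at 5.23%, and 2405 in WT replicate 2 at 5.24%.

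Next came cluster 1297 on chromosome 9 (54041301 to 54120700) at 4.29% ± 0.10 and cluster 1709 on chromosome 12 (99617801 to 99707200) at 4.18% ± 0.029. Cluster 2098 on chromosome 15 (59067301 to 59142700) held 3.99% ± 0.16 and cluster 716 on chromosome 5 (113732101 to 113804900) held 3.61% ± 0.033. Those of ranks 11 to 15 were 1921 on chromosome 14 (3.28% ± 0.15), 1024 on chromosome 7 (3.23% ± 0.11), 752 on chromosome 5 (3.16% ± 0.025), 525 on chromosome 4 (2.76% ± 0.11) and 1028 on chromosome 7 (2.75% ± 0.079). Clusters 1921, 1024 and 752 lay within their spread of each other, as did 525 and 1028. The 15 together held 66.8% ± 0.54 and lay on 11 chromosomes, and all are numbered clusters of 58.8 to 131.4 kb. The 95% Wilson intervals on their shares in a single library were at most 0.0358 percentage points wide. Such intervals cover counting error only, not the spread between libraries. PCR copies could not be told from separate molecules, so the intervals may be too narrow even for that error. After rank 18 (cluster 1441 on chromosome 10, 1.69% ± 0.13) the share dropped to 1.20% ± 0.40 for cluster 1215 on chromosome 8.

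Cluster length was described together with read density, given as reads per kb in a library scaled to 1000000 cluster reads (RPKM). Density is computed from a cluster's reads, so abundant clusters tend to be dense by definition. The 4353 clusters covered 130.9 Mb, with a median length of 27.8 kb and a range from 0.155 to 225.8 kb. The 423 clusters of 50 kb or longer held 83.0% ± 0.64 of the reads and those of 20 to 50 kb, which are 2669, held 14.9% ± 0.64. All 1261 shorter clusters together held 2.06% ± 0.0059. Length alone did not mark an abundant cluster: of the long clusters, 376 have piC names and held 2.06% ± 0.058, while the 47 numbered ones held 80.9% ± 0.70.

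The numbered clusters of 50 kb or longer fell into separate ranges of density. In 30 of the 47 the mean density lay between 21.0 and 687.3 RPKM, and these held 81.4% and 80.4% of the reads. The other 17 lay at 0.656 or below and held 0.0137% and 0.0127%, and 11 of them had a mean under 10 reads. None lay in between. Clusters on both sides of this gap are close in length: cluster 1338 on chromosome 9, 60.6 kb long, had 0 reads in WT replicate 1 and 0.333 in WT replicate 2, while cluster 1441 of 61.4 kb had 173150 and 233498. Among the 376 piC clusters of that length only 3 reached a density of 10, with 154.2 for piC_1566 on chromosome 1 as the highest. Numbered clusters of 20 to 50 kb showed no such gap. Of these 1614, 46 reached a density of 10 and 1552 lay under 1, with the rest between.

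Among numbered clusters with a mean of 1000 or more reads, longer ones were also denser. There were 93, with 94.2% of the reads in each library. The median density, averaged over the libraries, was 18.6 ± 0.12 for the 7 clusters of 10 to 20 kb, 26.6 ± 3.8 for the 12 of 20 to 30 kb and 39.6 ± 1.5 for the 33 of 30 to 40 kb. It was 44.8 ± 3.4 for the 11 of 40 to 50 kb, 143.7 ± 3.3 for the 14 of 50 to 70 kb and 511.4 ± 10.4 for the 16 of 70 kb or more. All 16 numbered clusters of 70 kb or more had over 1000 reads, against 33 of the 896 of 30 to 40 kb, and they alone held 65.2% and 64.1% of the reads. Across the 93 clusters the Spearman correlation of density with length was 0.56. The relation did not hold outside them: it was 0.0040 over all 1946 numbered clusters. Over the 2407 piC clusters it was -0.30, and over all 4353 clusters -0.20. These are descriptions only: length is the denominator of density, and the choice of the 93 clusters used their reads. The sources used here do not say how cluster borders were drawn, so a dependence of length on reads cannot be told apart from a dependence of reads on length.

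**Figure D2:**
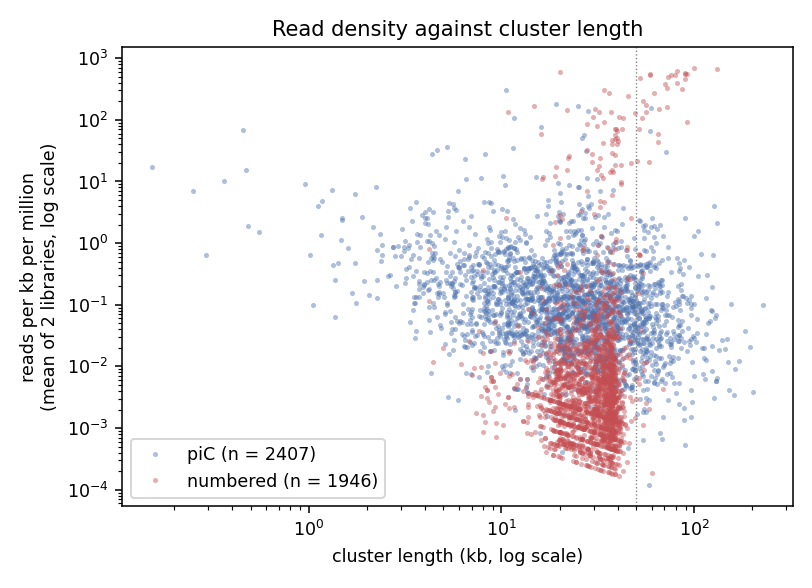
Read density (RPKM, mean of both libraries, log axis; the axis spells the unit out) against cluster length (kb, log axis), 1 point per cluster, with numbered clusters in red and piC clusters in blue. Right of the dotted line at 50 kb the red points form an upper group at 21.0 and above and a lower group at 0.656 and below, with none between.

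The densest clusters were not all among the longest. Cluster 1301 had 687.3 ± 56.0 RPKM and cluster 2249 had 660.8 ± 19.9, followed by 2405 with 611.3 ± 51.2. Cluster 1215 on chromosome 8 (112640501 to 112660500) reached 600.8 ± 199.5 within 20 kb, with 459.7 in WT replicate 1 and 741.9 in WT replicate 2, and 882 had 569.5 ± 20.3. The spread of 1215 covers the other 4, so its place among them is not fixed by these libraries. At the low end, among clusters of 20 kb or longer with at least 100 reads on average, were piC_402 on chromosome 5 with 0.0694 ± 0.0041, piC_207 on chromosome 3 with 0.0805 ± 0.014 and piC_2326 on chromosome 10 with 0.0834 ± 0.016. The longest cluster with 100 or more reads, piC_2755 on chromosome 16 (225.8 kb), had 201 and 358.1 reads. The shortest, piC_1153 on chromosome 13 (96094679 to 96095135, 0.457 kb), had 288 and 480 reads and a density of 68.5 ± 5.0.

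The classes of name differed in how their reads were spread. Numbered clusters were 1946 (44.7%) and held 94.4% of the reads in each library, while the 2407 piC clusters held 5.59% in WT replicate 1 and 5.64% in WT replicate 2. Yet 898 numbered clusters (46.1%) had a mean under 1 read, against 42 piC clusters (1.74%). The median density, averaged over the libraries, was 0.00333 ± 0.0010 for numbered and 0.0901 ± 0.016 for piC clusters. Numbered clusters thus held both the most abundant regions and most of those with hardly any reads, and piC clusters lay mostly between. The borders differed as well: 1945 of the 1946 numbered clusters end on a multiple of 100 bp and start 1 base after one, the exception being 1082B, and 0 piC clusters do. The sources used here do not say what the names stand for.

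The piC reads also came from few clusters, which were looked up after their values were seen. The 15 most abundant piC clusters held 64.5% of piC reads in WT replicate 1 and 68.2% in WT replicate 2. The first was piC_1566 (chromosome 1, 94851770 to 94911288), with 84321 and 140800 reads, 0.918% ± 0.068 of all reads. A run of 4 on chromosome 2 within 292.5 kb (150965623 to 151258128) followed. Of these piC_154 had 33036 and 52477 reads, piC_1656 had 36478 and 57581, piC_155 had 39216 and 62050, and piC_1657 had 36491 and 56332. Their mean shares lay within 1.18-fold of each other and summed to 1.53% ± 0.050 of all reads, or 27.3% of piC reads. The densest piC cluster was piC_1563 on chromosome 1, with 301.9 ± 12.1 RPKM over 10.6 kb.

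Some clusters had equal values in both libraries, in 19 sets among those with a mean of 20 or more reads. In 16 sets the members were piC clusters with means of 20 to 47 reads, and in all 16 they lay on different chromosomes. The other 3 sets were pairs of numbered clusters from the same region, with other clusters between the members of each pair. On chromosome 4, 8 numbered clusters (457 to 464) lie between 41877201 and 42747000. Clusters 458 and 461 each had 310.6 reads in WT replicate 1 and 519.6 in WT replicate 2, and 463 had 310.6 and 520.2. Clusters 457 and 462 each had 119.9 and 181.6, and 460 and 464 each had 27.7 and 46.9. Cluster 463 thus came close to 458 and 461 without equalling them, and 459, with 322.1 and 633.7, had the values of no other. Of all cluster values under 1000 reads 36.4% were whole in WT replicate 1 and 40.6% in WT replicate 2 (within 0.001). The share of whole values was 25.1% and 27.8% for numbered and 43.8% and 48.6% for piC clusters. The sources used here do not say how fractions arose. If the chromosome 4 clusters with equal values share near-identical sequence, which was not tested, their reads cannot be assigned to one of them. Whether the 16 piC sets, with their low means, have equal values by coincidence was not tested.

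With overlapping clusters counted once, chromosomes 7, 9 and 17 carried the most reads. Chromosome 7 also had the most clusters, but the orders by reads and by number of clusters were not the same. Chromosome 11, with 267 clusters, held 1.70% ± 0.046. Chromosome 7 had 11.7% ± 0.14 from 335 clusters, chromosome 9 had 11.7% ± 0.63 from 266 and chromosome 17 had 11.5% ± 0.34 from 213. These 3 did not differ beyond their spread and together held 35.5% in WT replicate 1 and 34.3% in WT replicate 2, with 18.7% of the clusters. With overlapping clusters all kept, chromosome 5 ranked first with 11.3%, above 7 (11.2%), 9 (11.1%) and 17 (11%); counted once, chromosomes 5 (8.68% ± 0.069), 15 (8.54% ± 0.17), 6 (7.86% ± 0.097) and 2 (6.90% ± 0.0087) came next. Chromosome 16, with 150 clusters over 4688 kb, held 0.0517% and 0.0440%, while chromosome 12, with 169 clusters over 4723 kb, held 4.19% and 4.23%. Chromosomes 16, 19, X and Y together held 0.297% ± 0.016 with 10.2% of the clusters.

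**Figure D3:**
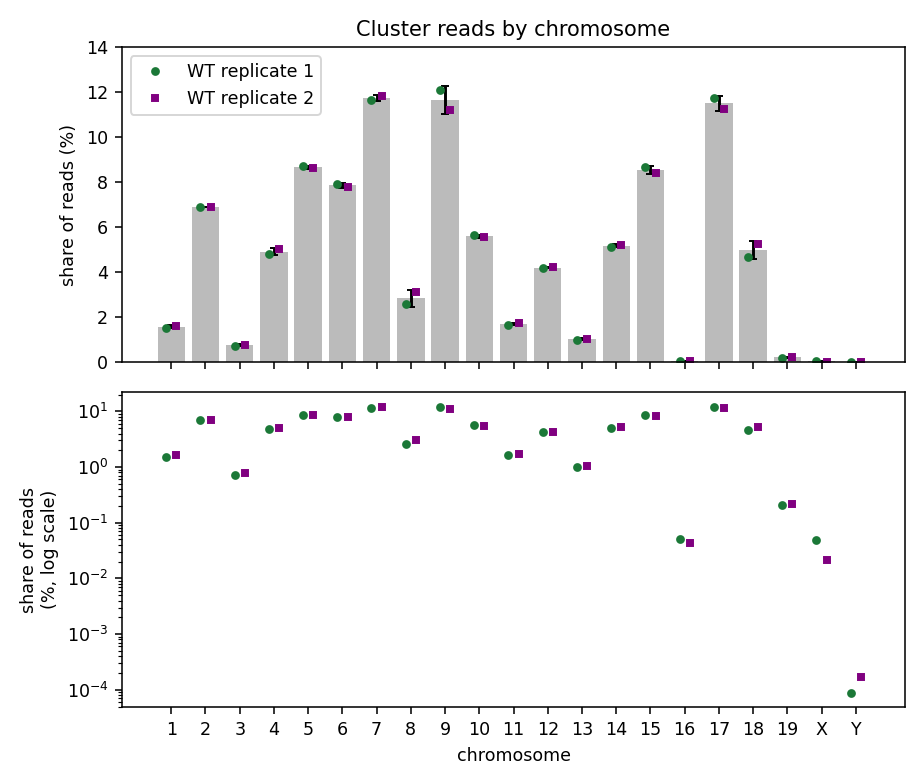
Share of cluster reads (%) by chromosome, with grey bars for the mean, error bars for the SD (n = 2) and points for the libraries in the upper panel (linear axis), and the same points on a log axis in the lower panel. Chromosomes 7, 9 and 17 are each above 11%, and 16, X and Y are each below 0.1%.

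On most chromosomes a handful of clusters set the share. In 15 of 19 autosomes 5 or fewer clusters reached 90% of the chromosome's reads. On chromosome 12 cluster 1709 alone held 99.1% and 99.2% of them, and on chromosome 18 cluster 2405 held 99.2% and 99.3%. On chromosome 17 the top cluster, 2249, held 75.5% and 75.4%, on chromosome 2 cluster 200 held 73.5% and 72.7%, and on chromosome 6 cluster 882 held 66.0% and 63.8%. Chromosome 10 was more even, with 31.6% and 28.8% in cluster 1441 and 15 clusters of 1000 or more reads. Chromosome 13 also had 15 such clusters but only 1.03% ± 0.041 of all reads, with cluster 1805 first at 20.9% and 18.4% of the chromosome. Chromosome 16 had none, and 47 clusters were needed for 90% of its reads; its first, piC_1309, had 423.6 and 742.0 reads.

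The kind of cluster that carried a chromosome also varied. Numbered clusters held over 96% of the reads on 12 of the 19 autosomes, but 6.42% on chromosome 1, 1.21% on chromosome 19 and 8.23% on chromosome 16. The top clusters of these 3 were piC_1566, piC_1497 (11746 and 20429 reads, 37325844 to 37351951) and piC_1309. On chromosome 2 numbered clusters held 73.1%, with the run of 4 piC clusters holding most of the rest. The top clusters of the remaining chromosomes were 1600 on chromosome 11 (103215 and 168512 reads, 1.11% ± 0.065) and 287 on chromosome 3 (28203 and 49606 reads, 0.316% ± 0.035).

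The sex chromosomes held little. The X chromosome had 168 clusters and 4720 and 3135 reads, which was 0.0487% in WT replicate 1 and 0.0215% in WT replicate 2. Cluster 2548 (64033501 to 64052500) made up 73.1% and 49.1% of these, with 3451 and 1540 reads. Without it, an alternative chosen after seeing the data, the X chromosome held 0.0131% and 0.0109%, a 1.20-fold difference in place of 2.26-fold. The Y chromosome had 8 clusters with 8.48 and 24.6 reads in all. Its first, 2706, had 0 reads in WT replicate 1, which allows up to 3.09e-05% of that library (3 counts of its total), and 17.9 reads in WT replicate 2, or 0.000123%.

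The libraries agreed closely for abundant clusters and less so for rare ones. The 10 clusters with the largest shares were the same in both libraries, as were 49 of the first 50, 97 of the first 100 and 186 of the first 200. Over the first 15 the log2 ratio of shares, WT replicate 2 over WT replicate 1, lay between -0.17 for 1301 and 0.17 for 2405, at most 1.13-fold apart. Of the 1539 clusters with a mean of 20 or more reads, 75.6% lay within 1.5-fold and 172 (11.2%) were at least 2-fold apart; no test is possible for 1 library against another. The SD of the log2 ratio was 0.67 for 20 to 100 reads, 0.56 for 100 to 1000, 0.55 for 1000 to 10000, 0.22 for 10000 to 100000 and 0.16 for 100000 or more. The exact (Clopper-Pearson) 95% interval of the ratio left out 1 in 524 of the 1539 (34%), in 25.6% of those with 20 to 100 reads and in all 28 with 100000 or more. That interval narrows with depth, holds counting error alone and rests on scaling by totals, so it gives no measure of the spread between libraries.

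**Figure D4:**
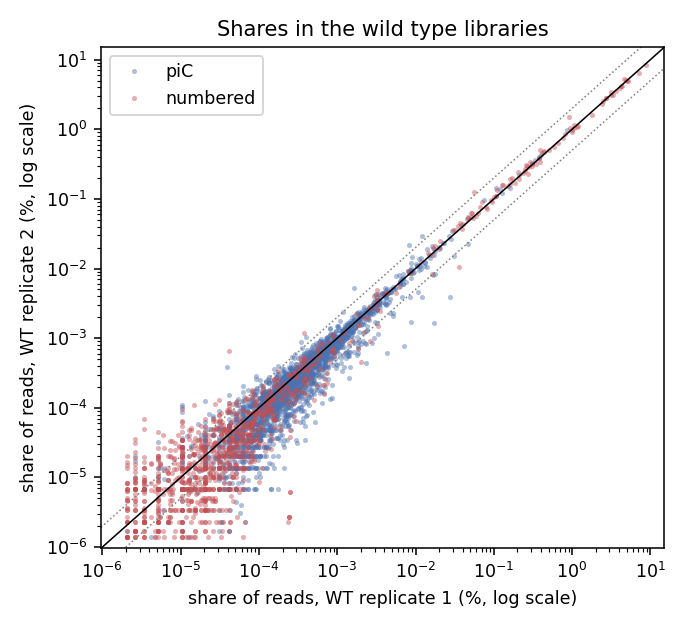
Share of reads (%) in WT replicate 2 against WT replicate 1, both on log axes, for the 3504 clusters with reads in both libraries; numbered clusters are red and piC clusters blue. The solid line is equality and the dotted lines are 2-fold; above 1% the points lie close to the line, with cluster 1215 (0.919% and 1.48%) the farthest from it, and they spread as shares fall.

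Of the clusters at least 2-fold apart, 153 (9.94% of the 1539) were higher in WT replicate 1 and 19 (1.23%) in WT replicate 2. These shares are relative to library totals, which a few clusters dominate. TMM scaling raised all log2 ratios by 0.20 and scaling by the median of ratios by 0.27, which gave 106 against 32 and 91 against 40. The lean depended on abundance under all 3, since a scaling moves all clusters alike: with totals the median log2 ratio was -0.18 for 20 to 100 reads, -0.067 for 100 to 1000, 0.058 for 1000 to 10000, 0.074 for 10000 to 100000 and -0.019 for 100000 or more. Relative to abundant clusters, rare ones were thus higher in WT replicate 1, the library with fewer reads. It also had more clusters seen in 1 library only, 492 against 357 in WT replicate 2. These 849 (19.5% of all) held 0.00622% and 0.00275% of the reads and 765 of them are numbered. The most abundant were 2706 with its 17.9 reads, piC_1148 on chromosome 13 with 10 and 0 reads and 303 on chromosome 3 with 0 and 8.67.

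Single clusters stood apart from others of their abundance. Among the 28 largest, cluster 1215 had 89160 and 216190 reads, 0.919% and 1.48%, and was 1.61-fold higher in WT replicate 2 (95% exact interval 1.60 to 1.63). The other 27 lay between -0.17 and 0.17 on the log2 scale, and without 1215 the SD fell from 0.16 to 0.093. The share of chromosome 8 was 2.58% and 3.12%, and without 1215 it was 1.66% and 1.63%. Cluster 560 on chromosome 4 (123553201 to 123580800) had 5356 and 18280 reads, 2.27-fold higher in WT replicate 2 (2.20 to 2.34), and it was the only 1 of the 49 clusters with 10000 to 100000 reads past 2-fold. The other clusters with a mean of 100 or more reads that differed most in this direction were piC_4 on chromosome 1 (159 and 757.5 reads, 3.17-fold), 1959 on chromosome 14 (36.3 and 171.7, 3.15-fold), and piC_1112 and piC_2628 on chromosome 13 (2.68-fold and 2.44-fold).

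In the other direction the differences among clusters with 100 or more reads were larger. piC_86 on chromosome 2 (26758570 to 26778886) had 1656 reads in WT replicate 1 and 236.8 in WT replicate 2, a share 10.5-fold higher in WT replicate 1. piC_330 on chromosome 4 had 693 and 110.7 (9.41-fold) and piC_2122 on chromosome 7 had 2672 and 561.8 (7.15-fold). piC_2616 on chromosome 13 and piC_761 on chromosome 9 were 7.02-fold and 5.27-fold higher. All 5 of the most extreme clusters with 100 or more reads on this side have piC names. Of all clusters, piC names were 377 of the 412 with a mean of 100 to 1000 reads and 61 of the 154 with 1000 or more. Of the 153 past 2-fold, 136 have piC names (88.9%), near the 85.5% of piC names among all 1539. Among clusters with 20 or more reads, 11.6% of the 1316 piC and 8.97% of the 223 numbered ones were at least 2-fold apart.

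**Figure D5:**
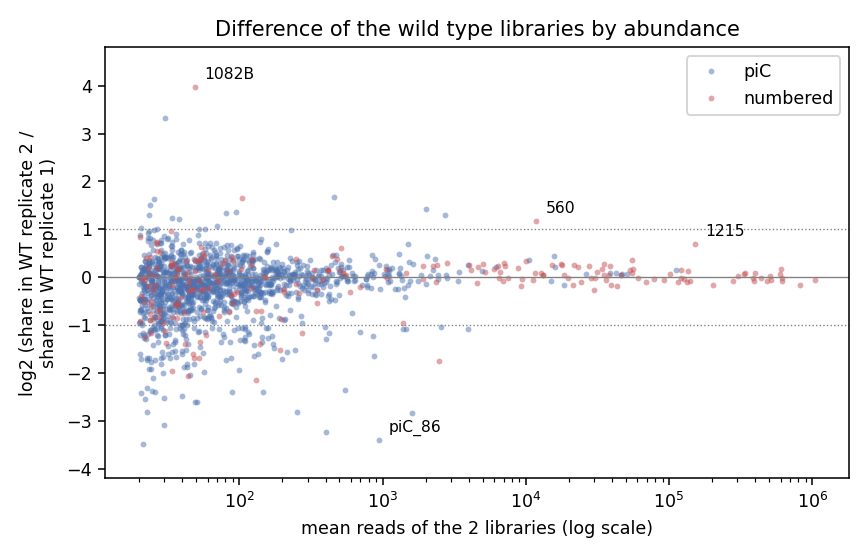
Log2 ratio of the shares (WT replicate 2 over WT replicate 1) against mean reads (log axis) for the 1539 clusters with a mean of 20 or more reads, numbered in red and piC in blue; dotted lines are 2-fold. The points narrow to the right, where 560 and 1215 stand above the rest, 1082B is the highest of all, and piC_86 is the lowest of those with 100 or more reads.

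The cluster on which the study reports, 1082B on chromosome 7 (132472368 to 132476593, 4.23 kb), had few reads and differed most between the wild type libraries. It had 4 reads in WT replicate 1 and 94 in WT replicate 2, a log2 ratio of 3.97, the highest of the 1539 (15.6-fold, exact interval 5.91 to 58.6). Its density was 0.0976 and 1.53 RPKM. Its neighbours varied less. Cluster 1082C to its right had 1610 and 2861 reads (1.18-fold, 1.11 to 1.26), 1082A to its left had 257.5 and 383 (0.990-fold, 0.841 to 1.16) and 1081, next to 1082A, had 36 and 69 (1.28-fold, 0.841 to 1.97). The intervals of 1082A and 1081 include 1.

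With overlapping clusters counted once, 1933 clusters (44.4%) lay within 100 kb of another, and these held 51.6% ± 0.25 of the reads. Few lay much closer. The median gap between neighbours was 265.2 kb, with quartiles at 87.1 and 690.3 kb, and 150 clusters (3.45%) lay within 5 kb of another. These 150 held 5.54% of the reads in WT replicate 1 and 5.44% in WT replicate 2. Only 1 pair at that distance had 1000 or more reads on both sides: 2302 and 2303 on chromosome 17 (66483101 to 66522900 and 66523601 to 66595400), 700 bp apart. Cluster 2303 had 231224 and 331012 reads and 2302 had 15766 and 23573, a 14.3-fold difference on average. The next pairs were 1922 and 1923 on chromosome 14 (5900 bp apart, 3.70-fold), 1233 and 1234 on chromosome 9 (6600 bp, 3.86-fold), 1792 and 1793 on chromosome 13 (9800 bp, 4.66-fold), and 1234 with piC_753 on chromosome 9 (11026 bp, 3.72-fold). In all 5 pairs the members differed in reads by at least 3.70-fold, and the same member was higher in both libraries. The tables carry no strand, so the orientation of these pairs was not analysed here.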

How the data were processed

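Libraries were made from 50 ng of RNA shorter than 200 nt with 15 cycles of PCR and sequenced as 36 bp single reads, per the labels' protocols. The authors deposited, for each library, expected counts per cluster with mm9 positions, which need not be whole and are written with up to 6 significant digits. The authors also deposited whole-number counts per gene for mRNA, used here for 1 check of the cell type as CPM. The submitters' processing notes list CASAVA 1.3, Novoalign, TopHat and bedtools but no role for any of them; how clusters were defined was not found in the sources used here.

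Clusters of both WT tables were joined by name and position, and a cluster overlapping one with more wild type reads was left out. Shares are percent of the remaining reads of a library. Agreement was described for clusters with a mean of 20 or more reads. No test was run, since the libraries form 1 group; functions were tested on simulated data. Calculations used scipy 1.17.1, pandas 2.3.3 and numpy 2.4.6 under Python 3.11.15, with edgeR 4.0.16 for TMM and DESeq2 1.42.0 for size factors. Clusters were named by rule: the 15 most abundant, the first of each chromosome, those of extreme density, length or library ratio, the most abundant seen in 1 library, the closest pairs with 1000 or more reads, and the cluster of the study with its neighbours. The piC and chromosome 4 runs, piC_1563 and cluster 1338 were chosen after their values were seen. Members and lists were chosen with earlier results of these data known. No mm9 genome or annotation was used, so no sequence is printed and clusters are not placed in genes.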

Additional observations from a re-analysis of the deposited data

How the results depend on the processing

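The 10 and 42 clusters for 50% and 90% of reads moved by less than 1.5 times in each alternative run. Those for 99% (233.5 on average) were 143 with a mean of 100 or more reads and 69.5 with numbered clusters only. With overlaps included, the first 10 and 100 clusters held 49.1% and 97.5%, chromosomes 7, 9 and 17 33.3%, chromosome 5 11.3% (8.68% counted once, now the highest), 1 2.37% (1.57%) and 19 0.340% (0.214%), clusters of 20 kb or longer 96.5% and numbered clusters 93.3%, and 14.9% of clusters lay within 5 kb of another. Keeping the longest of overlapping clusters gave 98.0% for clusters of 20 kb or longer and 94.4% for numbered ones, and merging gave 98.01% for the former. With a mean of 20 or more reads, these were 97.97% and 94.5%, the Gini coefficient was 0.972, the median density 0.229 and clusters in 1 library only 0%. With 100 or more, they were 98.1% and 94.8%, 0.937, 0.922 and 0%, with 98.3% in the first 100 clusters, 2.12% within 5 kb, 8.66% at 2-fold and an SD of 0.53. With numbered clusters only, the first 10 and 100 held 54.6% and 99.9%, chromosomes 7, 9 and 17 36.4%, and clusters of 20 kb or longer 99.4%; the Gini coefficient was 0.986, the median density 0.0035, clusters in 1 library only 39.3% and those at 2-fold 8.97%. Using 1 library at a time, with the clusters it detects, gave a Gini coefficient of 0.9879 to 0.9882 and a median density of 0.0323 to 0.0441 (0.0270 with both, where undetected clusters count as 0). Other borders gave 0.965% and 13.4% of clusters within 1 and 20 kb, and 99.8% and 83.0% of reads in clusters of at least 10 and 50 kb. At 2-fold, TMM scaling gave 9.0%, the median of ratios 8.5% and a pseudocount of 1 CPM 7.15%, with an SD of 0.49. Filters and borders change which clusters are counted. The scalings added the same value to all log2 ratios, 0.20 for TMM and 0.27 for the median of ratios. This moved the 2-fold clusters from 153 higher in WT replicate 1 and 19 in WT replicate 2 to 106 and 32 with TMM. With the median of ratios they were 91 and 40. No paired analysis was possible because only 1 group was used. Agreement was not described for clusters under a mean of 20 reads, whose values rest on few counts.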
